A study of Mus musculus with 24 samples.

Results

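The p53 pathway was followed through 10 genes: Trp53, the gene for the transcription factor p53, and 9 of the genes that p53 switches on, Mdm2, Ccng1, Bbc3, Bax, Fas, Zmat3, Phlda3, Eda2r and Aen. They were taken by gene symbol from the deposited table of read counts and are 10 of the 55487 genes in that table. All 10 were among the 15401 genes with enough counts to be tested, although Eda2r reached that minimum through its WT libraries alone and had to differ between the lines once it was tested. The mRNA came from mouse embryonic fibroblasts (MEFs), either wild type (WT) or lacking the lysosomal transcription factors TFEB and TFE3 (tfeb tfe3 DKO MEFs). Each genotype received DMSO (the vehicle), torin1, a catalytic inhibitor of MTOR, or MK-8722, a direct activator of AMPK, which gives 6 groups of 4 libraries and 24 libraries in all. Each genotype is 1 line of cells, so loss of TFEB and TFE3 cannot be told apart from any other difference between the 2 lines. The cultures were taken at passages 7, 8, 9 and 11 in WT and 8, 9, 10 and 11 in DKO. How long the cells were treated before sequencing, and whether libraries came from separate cultures beyond their passage, are not given in the sources used here, so the p-values measure the spread between these libraries. The question asked was whether the lines differ in the mRNA of p53 and its targets, and whether torin1 or MK-8722 moved these mRNAs alike in both.

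p53 is made all the time and destroyed nearly as fast, because MDM2, itself a p53 target, tags it for the proteasome. DNA damage, nucleolar stress or an active oncogene lets the protein accumulate, so its activity is usually read from the mRNA of its targets and not from Trp53 mRNA. Its targets stop the cell cycle, start cell death, or repair and feed the cell, and in cultured fibroblasts the pathway is best known for the growth arrest that ends the life of a primary culture. Neither the p53 protein nor the sequence of the Trp53 alleles was measured here.

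**Figure D1:**
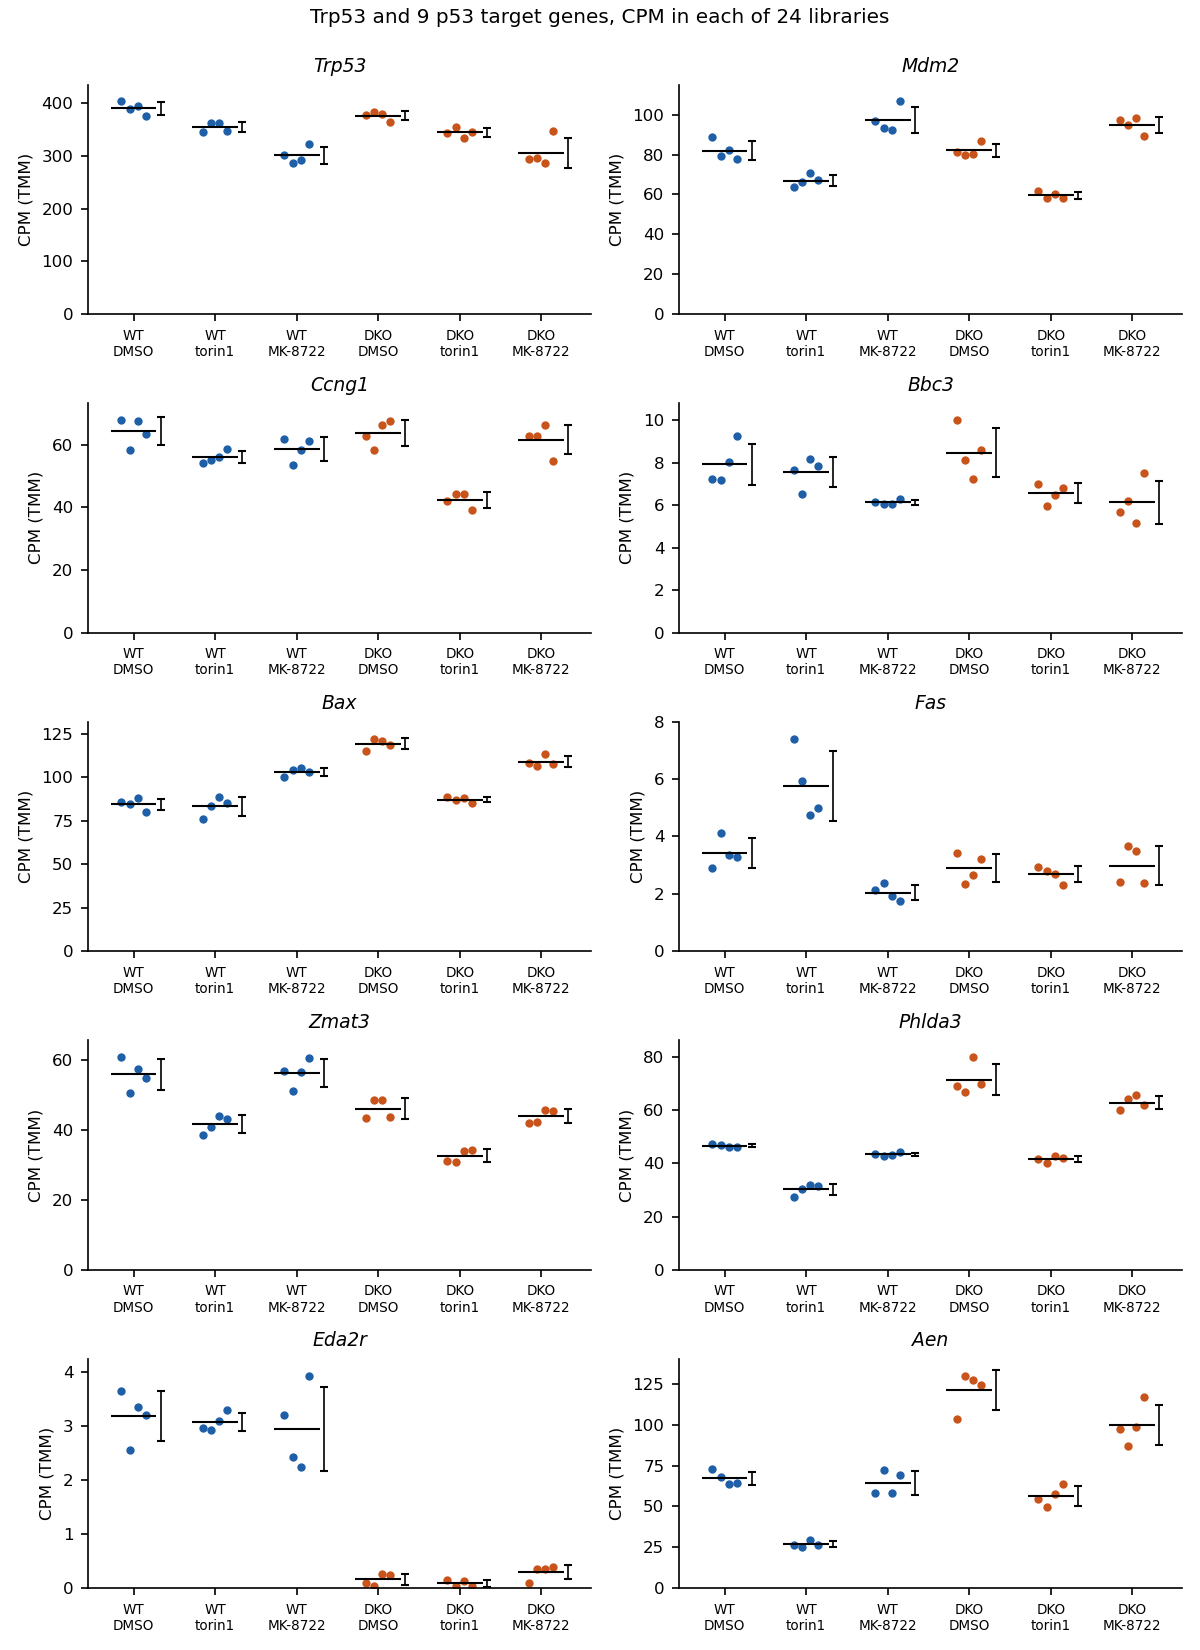
Read counts scaled to sequencing depth (CPM, with TMM factors) of the 10 genes in each of the 24 libraries, 1 panel per gene with its own linear axis from 0; points are libraries, horizontal lines are means and the bars beside them are ± 1 SD (n = 4). Eda2r lies between 2.24 and 3.93 CPM in the WT libraries and at or under 0.385 CPM in the DKO libraries, while the points for Trp53 overlap between the lines under each treatment.

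The start-site windows of these genes were searched for letters that p53 and TFEB are known to bind. Windows are printed for the genes with an exact p53 match and for Eda2r. For Aen only the window with both motifs is printed. The p53 response element is built of a repeated 10-base consensus, called the p53 decamer here, and TFEB and TFE3 bind E-boxes with the letters CACGTG. Both motifs read the same on either strand, and no decamer match overlapped a CACGTG match in these windows. RefSeq start sites on GRCm38.p6, taken from 250 bases before to 50 bases after each start, matched 9 of the 10 genes with 12 windows; Zmat3 had no entry. An exact decamer was present for 5 of the 9 genes (Trp53, Mdm2, Ccng1, Bax and Aen), against 9.554% of the 27025 genes with a window. CACGTG was present for 6 of the 9 (Trp53, Bbc3, Bax, Fas, Eda2r and Aen), against 8.093% of genes. Some genes have more windows than others, so the shares are counts of genes and not of windows. A match is a description of these letters, not a site in use. The windows run 5′ to 3′ on the strand of the gene, and capitals mark the decamer and CACGTG.
Trp53, chr11:69580109-69580408 (+): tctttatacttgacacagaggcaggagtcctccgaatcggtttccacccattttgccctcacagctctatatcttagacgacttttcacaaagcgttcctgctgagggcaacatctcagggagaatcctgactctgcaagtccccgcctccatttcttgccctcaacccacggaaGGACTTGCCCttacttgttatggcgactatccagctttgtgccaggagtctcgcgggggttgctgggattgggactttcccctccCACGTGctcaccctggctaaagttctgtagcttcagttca
Mdm2, chr10:117710709-117711008 (-): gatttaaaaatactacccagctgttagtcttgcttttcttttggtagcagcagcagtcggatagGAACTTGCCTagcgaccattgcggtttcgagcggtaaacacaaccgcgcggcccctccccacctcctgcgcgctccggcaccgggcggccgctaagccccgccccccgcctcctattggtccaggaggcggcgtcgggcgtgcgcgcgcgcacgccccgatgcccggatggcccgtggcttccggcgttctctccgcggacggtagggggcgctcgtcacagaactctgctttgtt
Ccng1, chr11:40755237-40755536 (-): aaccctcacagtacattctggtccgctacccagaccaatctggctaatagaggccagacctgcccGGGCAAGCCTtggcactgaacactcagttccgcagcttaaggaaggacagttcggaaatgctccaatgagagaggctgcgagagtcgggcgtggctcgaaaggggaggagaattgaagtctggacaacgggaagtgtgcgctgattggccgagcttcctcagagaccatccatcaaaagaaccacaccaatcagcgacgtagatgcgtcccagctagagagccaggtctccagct
Bax, chr7:45466849-45467148 (-): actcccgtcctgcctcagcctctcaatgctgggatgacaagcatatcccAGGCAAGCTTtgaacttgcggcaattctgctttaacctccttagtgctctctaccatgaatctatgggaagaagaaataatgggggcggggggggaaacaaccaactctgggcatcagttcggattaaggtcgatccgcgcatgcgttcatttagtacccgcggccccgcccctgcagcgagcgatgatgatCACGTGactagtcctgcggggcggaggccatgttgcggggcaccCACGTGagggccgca
Aen, chr7:78895808-78896107 (+): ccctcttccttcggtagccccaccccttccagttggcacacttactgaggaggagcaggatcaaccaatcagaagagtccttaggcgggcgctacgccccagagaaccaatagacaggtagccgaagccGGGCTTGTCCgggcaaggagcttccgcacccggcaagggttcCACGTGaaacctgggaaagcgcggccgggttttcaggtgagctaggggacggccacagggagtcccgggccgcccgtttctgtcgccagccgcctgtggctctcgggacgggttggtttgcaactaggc
Eda2r, chrX:97377160-97377459 (-): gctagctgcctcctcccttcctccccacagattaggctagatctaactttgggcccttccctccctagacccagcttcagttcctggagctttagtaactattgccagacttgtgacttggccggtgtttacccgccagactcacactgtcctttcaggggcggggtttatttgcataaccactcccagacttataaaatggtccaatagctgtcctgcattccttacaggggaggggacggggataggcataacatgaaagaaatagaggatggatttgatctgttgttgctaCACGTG
The window of Eda2r held CACGTG but no exact decamer, as did that of Fas and a window of Bbc3.

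The libraries held 24668921 to 33332562 counts each, and no pair of replicates agreed within sampling noise. Tfeb mRNA was at 20.88 to 24.97 CPM in WT and 1.95 to 2.65 CPM in DKO under DMSO. Tfe3 mRNA was not lower in DKO (119.2 to 121.8 CPM in WT against 121.4 to 126.4 in DKO under DMSO), so its level is no check of that allele. Fibroblast markers summed to 6500 to 10443 CPM over the 6 groups, with Col1a1 at 753.8 CPM or more and Vim and Fn1 above that in every library. Fap, however, was at most 0.271 CPM. Thy1 was at 2.22 to 4.51 CPM over the WT libraries and at 0 to 0.0385 CPM over the DKO libraries. The 6 epithelial markers summed to 25.3 to 34.0 CPM in WT and 43.3 to 72.4 CPM in DKO, most of it from Krt19. Epcam, Cdh1 and Krt18 were under 1.9 CPM in every library and, against the sum, lower in DKO under DMSO, with means of 0.316, 0.677 and 0.387 CPM in WT and 0.0458, 0.115 and 0.097 CPM in DKO. Their part in the differences between the lines was not tested. Leukocyte markers summed to 1.63 to 14.3 CPM, nearly all of it Cd68, endothelial markers to at most 1.37 CPM, and neural and muscle markers to 11.8 to 40.7 CPM, most of it Tubb3. In bulk RNA, fewer cells of a type and less RNA per cell cannot be told apart.

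Trp53 mRNA was not called different between the lines under any treatment, and the intervals were narrow. The gene lies at chr11:69580359-69591873 on the plus strand (GRCm38, ENSMUSG00000059552). Under DMSO its level was 403.6, 389.5, 395.2 and 375.1 CPM in WT and 377.0, 384.3, 379.6 and 364.4 CPM in DKO. The groups overlapped, and the log2 difference, DKO minus WT, was -0.05 (SE 0.05, 95% interval -0.15 to 0.04, edgeR adjusted p = 0.329). Under torin1 it was 345.6, 361.8, 363.4 and 348.0 CPM in WT and 344.3, 355.4, 335.1 and 345.8 CPM in DKO, and under MK-8722 302.8, 286.4, 293.0 and 322.5 CPM in WT and 293.6, 296.7, 286.2 and 348.2 CPM in DKO. Replicate 4 of DKO under MK-8722 stood above the other 3, and the log2 differences were -0.04 (interval -0.14 to 0.06) and 0.02 (-0.07 to 0.12). Under DMSO the 4 annotated coding transcripts of Trp53 held mean shares of 37.7%, 33.7%, 14.8% and 11.4% of the gene's TPM in WT and 37.4%, 32.9%, 15.5% and 11.6% in DKO. A processed pseudogene, Trp53-ps, took 24 to 61 counts a library in the same table.

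Mdm2, the ubiquitin ligase that destroys p53 and the feedback target most often used to read its activity, did not separate the lines under DMSO (chr10:117688875-117710758, minus strand). It was at 88.6, 79.5, 82.2 and 77.7 CPM in WT and 81.3, 80.0, 80.2 and 86.9 CPM in DKO, with a log2 difference of 0.002 and an interval of -0.10 to 0.10. Under torin1 the WT libraries were at 63.7, 66.3, 70.7 and 67.3 CPM and the DKO libraries at 61.9, 58.2, 60.3 and 58.4 CPM. These groups did not overlap, yet the log2 difference of -0.17 (SE 0.05, adjusted p = 0.00491) stayed under the 1.2-fold minimum for a call. With scaling to library size alone, which moves the median of all genes by -0.13 in this comparison, it was -0.29 and passed. Under MK-8722 the log2 difference was -0.03 (-0.13 to 0.07).

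A gene was called when its edgeR adjusted p was under 0.05 and its fold at least 1.2, the limits the study used. Leaving Eda2r aside, 3 of the other 9 genes were higher and 1 lower in DKO under DMSO, in a comparison where 23.5% of all tested genes were called higher and 24.6% lower. Under torin1 2 were higher and 3 lower (24% and 27.8% of all tested genes), and under MK-8722 3 were higher and 1 lower (23.3% and 25.4%). The median log2 difference of the 9 was 0.002 under DMSO, -0.17 under torin1 and 0.07 under MK-8722, beside -0.008, -0.04 and -0.01 over all tested genes. In either direction 4, 5 and 4 of the 9 were called, near the 48.2%, 51.8% and 48.7% of all tested genes. With scaling to library size alone, the share of called genes that were higher in DKO under torin1 moved from 46.3% to 31.9%. Phlda3 and Aen were higher in DKO under all 3 treatments, Zmat3 lower under all 3, and Trp53, Mdm2 and Bbc3 were called under none.

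**Figure D2:**
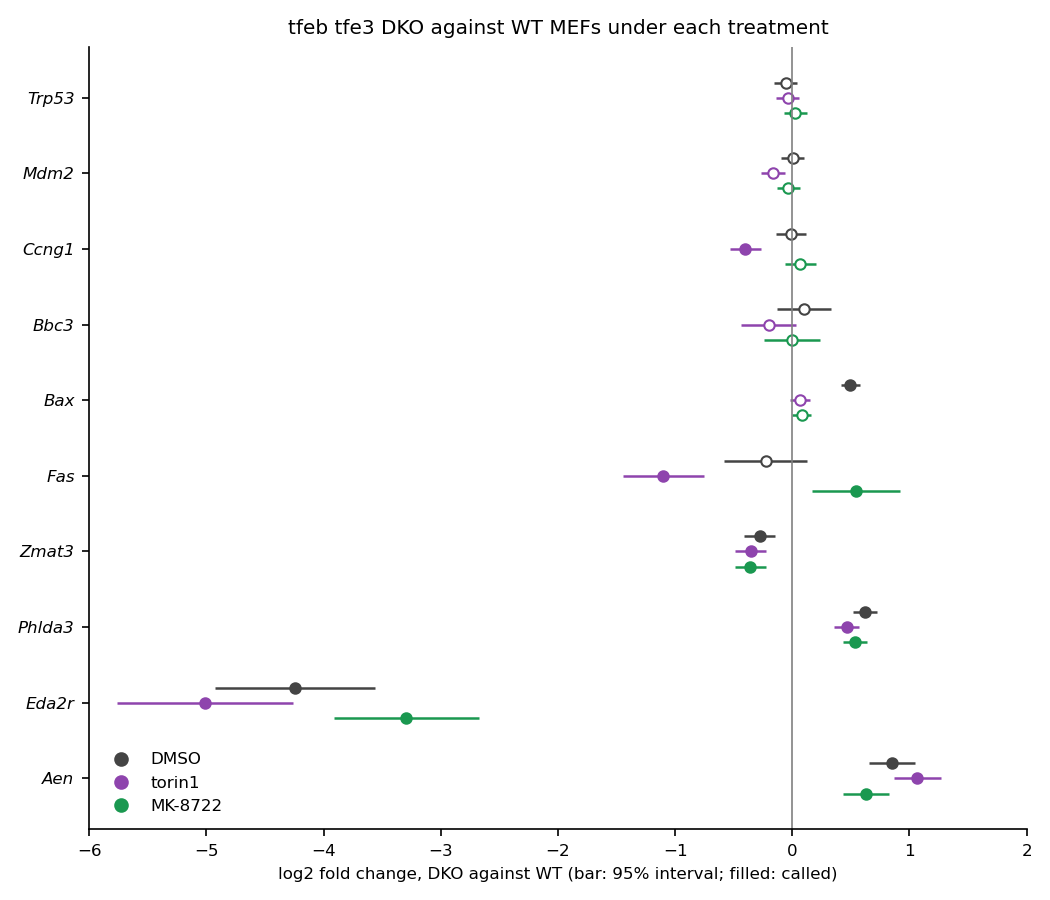
Log2 difference between the lines, DKO minus WT, for the 10 genes under each treatment, with 95% intervals from the edgeR fit; filled points passed the adjusted p and the 1.2-fold minimum. Eda2r lies at -4.25, -5.01 and -3.29 and Aen at 0.85, 1.07 and 0.63, while the intervals of Trp53 span 0 under each treatment. Eda2r was tested through its WT libraries alone, so its filled points and intervals are a description and not a test.

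Eda2r, which encodes the ectodysplasin A2 receptor of the TNF receptor family, showed the widest gap of the 10 (chrX:97333840-97377216, minus strand). Under DMSO the WT libraries held 119, 85, 90 and 94 counts and the DKO libraries 3, 1, 7 and 6 counts. Under torin1 the counts were 91, 92, 99 and 92 in WT and 4, 1, 4 and 1 in DKO, and under MK-8722 84, 68, 70 and 101 in WT and 3, 9, 10 and 10 in DKO. Every WT library was above every DKO library. The fitted log2 differences were -4.25, -5.01 and -3.29, given as a description with no test because the gene was tested through its WT libraries. As ratios of summed counts scaled for depth, WT exceeded DKO 19.4-fold under DMSO, 33.7-fold under torin1 and 9.87-fold under MK-8722. These ratios pool the libraries of a group and leave out the spread between them. Per length the gene was the least abundant of the 10 even in WT, at 1.51 ± 0.33 TPM (SD, n = 4) under DMSO.

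Aen and Phlda3 were higher in DKO. Aen encodes a nuclease that digests DNA in dying cells (chr7:78895854-78911209, plus strand), and under DMSO it was at 72.8, 67.9, 63.7 and 64.1 CPM in WT and 103.2, 129.8, 127.4 and 124.0 CPM in DKO. The groups were apart, with the first DKO library (passage 11) lowest of its 4, and the difference was 1.80-fold (log2 0.85, SE 0.09, adjusted p = 4.44e-08). Under torin1 Aen was at 26.4, 25.1, 29.7 and 26.7 CPM in WT and 54.8, 49.7, 57.5 and 64.0 CPM in DKO, or 2.10-fold (log2 1.07, adjusted p = 1.51e-09). Under MK-8722 it was at 58.5, 72.5, 58.2 and 69.3 CPM in WT and 97.1, 86.9, 98.6 and 116.6 CPM in DKO, or 1.54-fold (log2 0.63, adjusted p = 3.87e-06). The lines did not overlap under any treatment.

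Phlda3, a small pleckstrin-homology protein that restrains AKT (chr1:135766119-135769136, plus strand), was at 47.3, 46.8, 46.1 and 46.1 CPM in WT and 69.3, 66.8, 79.9 and 69.8 CPM in DKO under DMSO. Its log2 difference was 0.62 (SE 0.05, adjusted p = 2.46e-10). Under torin1 it was at 27.2, 30.3, 32.0 and 31.6 CPM in WT and 41.6, 40.3, 42.9 and 42.1 CPM in DKO, and under MK-8722 at 43.4, 42.8, 43.1 and 44.3 CPM in WT and 59.9, 64.1, 65.6 and 61.9 CPM in DKO. No WT library reached a DKO library of the same treatment, and the log2 differences were 0.46 and 0.54 (adjusted p = 2.96e-08 and 2.73e-09).

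Zmat3, a zinc-finger RNA-binding protein that p53 uses to steer splicing and mRNA decay (chr3:32334792-32366014, minus strand), was lower in DKO. Under DMSO it was at 60.9, 50.6, 57.6 and 55.0 CPM in WT and 43.4, 48.7, 48.7 and 43.8 CPM in DKO. The groups did not overlap, at a log2 difference of -0.28 (SE 0.06, adjusted p = 0.000441). That value lay just past the 1.2-fold minimum and no longer passed it without WT DMSO replicate 1 (-0.24), DKO DMSO replicate 1 (-0.25) or DKO DMSO replicate 4 (-0.26). Under torin1 it was at 38.7, 40.8, 44.2 and 43.3 CPM in WT and 31.2, 30.8, 34.0 and 34.5 CPM in DKO, and under MK-8722 at 57.1, 51.1, 56.8 and 60.6 CPM in WT and 42.1, 42.5, 45.9 and 45.6 CPM in DKO. Both differences were -0.36 on the log2 scale (adjusted p = 3.14e-05 and 2.83e-05).

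Bax, Ccng1 and Fas differed between the lines under some treatments. Bax, the pore-forming protein that opens the mitochondrial outer membrane in apoptosis (chr7:45461697-45466898, minus strand), was at 85.9, 84.5, 87.9 and 80.3 CPM in WT and 115.3, 122.3, 121.1 and 118.7 CPM in DKO under DMSO. The log2 difference was 0.50 (SE 0.04, adjusted p = 2.81e-10). Under torin1 it was at 75.8, 83.3, 88.9 and 85.4 CPM in WT and 88.6, 87.3, 88.2 and 85.1 CPM in DKO, and under MK-8722 at 100.1, 104.0, 105.6 and 102.9 CPM in WT and 108.5, 106.5, 113.7 and 107.6 CPM in DKO. The torin1 groups overlapped and the MK-8722 groups lay just apart, and neither difference was called (log2 0.07, interval -0.02 to 0.15, and 0.08, interval -0.002 to 0.16). A gene that overlaps Bax on the same strand, Gm45808, had at most 5 counts in a library.

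Ccng1, cyclin G1, which guides a phosphatase to MDM2 (chr11:40748552-40755311, minus strand), differed under torin1. It was at 54.1, 55.2, 56.2 and 58.6 CPM in WT and 42.0, 44.3, 44.4 and 39.1 CPM in DKO, which do not overlap (log2 -0.40, SE 0.06, adjusted p = 6.42e-06). Under DMSO the ranges overlapped, at 58.4 to 67.9 CPM in WT and 58.5 to 67.5 in DKO (log2 -0.01, interval -0.14 to 0.12). Under MK-8722 the log2 difference was 0.07 (-0.06 to 0.20).

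Fas, the death receptor for FAS ligand (chr19:34290666-34327772, plus strand), was lower in DKO under torin1 and higher under MK-8722. Under torin1 it was at 7.41, 5.94, 4.73 and 4.98 CPM in WT and 2.95, 2.79, 2.70 and 2.32 CPM in DKO (log2 -1.10, SE 0.17, adjusted p = 4.22e-06). Under MK-8722 it was at 2.14, 2.37, 1.92 and 1.75 CPM in WT and 2.40, 3.65, 3.50 and 2.39 CPM in DKO (log2 0.54, SE 0.18, adjusted p = 0.0116). These groups did not overlap, but without DKO MK-8722 replicate 2 the second call was lost (adjusted p = 0.0548). Under DMSO, at 2.89, 4.13, 3.36 and 3.27 CPM in WT and 3.43, 2.35, 2.65 and 3.21 CPM in DKO, the groups overlapped (log2 -0.23, interval -0.58 to 0.13).

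Bbc3, which encodes the BH3-only death protein PUMA (chr7:16308393-16318205, plus strand), overlapped between the lines under every treatment. It ranged from 7.17 to 9.27 CPM in WT and 7.22 to 10.01 CPM in DKO under DMSO, with a log2 difference of 0.10 (-0.13 to 0.33). Under torin1 the difference was -0.20 (-0.44 to 0.03) and under MK-8722 -0.003 (-0.24 to 0.24).

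Per length, the order of the 10 genes can be compared within a line. In WT under DMSO Trp53 stood first at 355 ± 8.9 TPM (SD, n = 4), followed by Bax (178 ± 5.8), Mdm2 (58.1 ± 4.9), Phlda3 (55.3 ± 0.5), Aen (51.4 ± 3.2), Ccng1 (29.0 ± 2.0), Zmat3 (11.8 ± 1.0), Bbc3 (9.88 ± 1.4), Fas (4.14 ± 0.80) and Eda2r. Mdm2, Phlda3 and Aen had ranges over the libraries that each overlapped the others, and Zmat3 and Bbc3 overlapped as well. In DKO under DMSO Aen (88.6 ± 8.2) and Phlda3 (82.7 ± 6.8) overlapped each other and stood above Mdm2 (60.7 ± 3.2), and Zmat3 (9.51 ± 0.57) and Bbc3 (9.72 ± 1.4) were not separated.

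The drug responses were measured against the DMSO libraries of each line, which both drugs share. In WT, torin1 raised 1 and lowered 4 of the 10 genes, where 26.6% of all tested genes rose and 20.5% fell, and in DKO it raised 0 and lowered 7 (23% and 20.2%). The median log2 change of the 10 was -0.17 in WT and -0.48 in DKO, beside 0.05 and 0.02 over all tested genes. With scaling to library size alone, the share of called genes that rose in WT moved from 56.5% to 68.2%. Aen fell by 1.32 on the log2 scale in WT (adjusted p = 7.26e-11) and by 1.10 in DKO (1.16e-09), and every torin1 library lay below every DMSO library of its line in the values given above. Phlda3 fell by 0.62 (3.49e-10) and 0.78 (1.02e-11), Zmat3 by 0.42 (3.37e-06) and 0.50 (4.37e-07), and Mdm2 by 0.29 (1.97e-05) and 0.46 (3.54e-08). The WT change of Mdm2 came to -0.26, under the 1.2-fold minimum, without WT DMSO replicate 1, and to -0.20 with scaling to library size alone. The 4 genes that fell in both lines thus include the DKO-high pair Aen and Phlda3 and the DKO-low Zmat3. Fas rose by 0.76 on the log2 scale in WT (adjusted p = 0.000326). Ccng1 (-0.59), Bax (-0.45) and Bbc3 (-0.37) fell in DKO, the last with adjusted p = 0.00739, or 0.051 without DKO DMSO replicate 1. Trp53 changed by -0.14 in WT and -0.12 in DKO, under the fold minimum. CPM values are relative to the other mRNA of a library, so total mRNA per cell does not show in them.

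**Figure D3:**
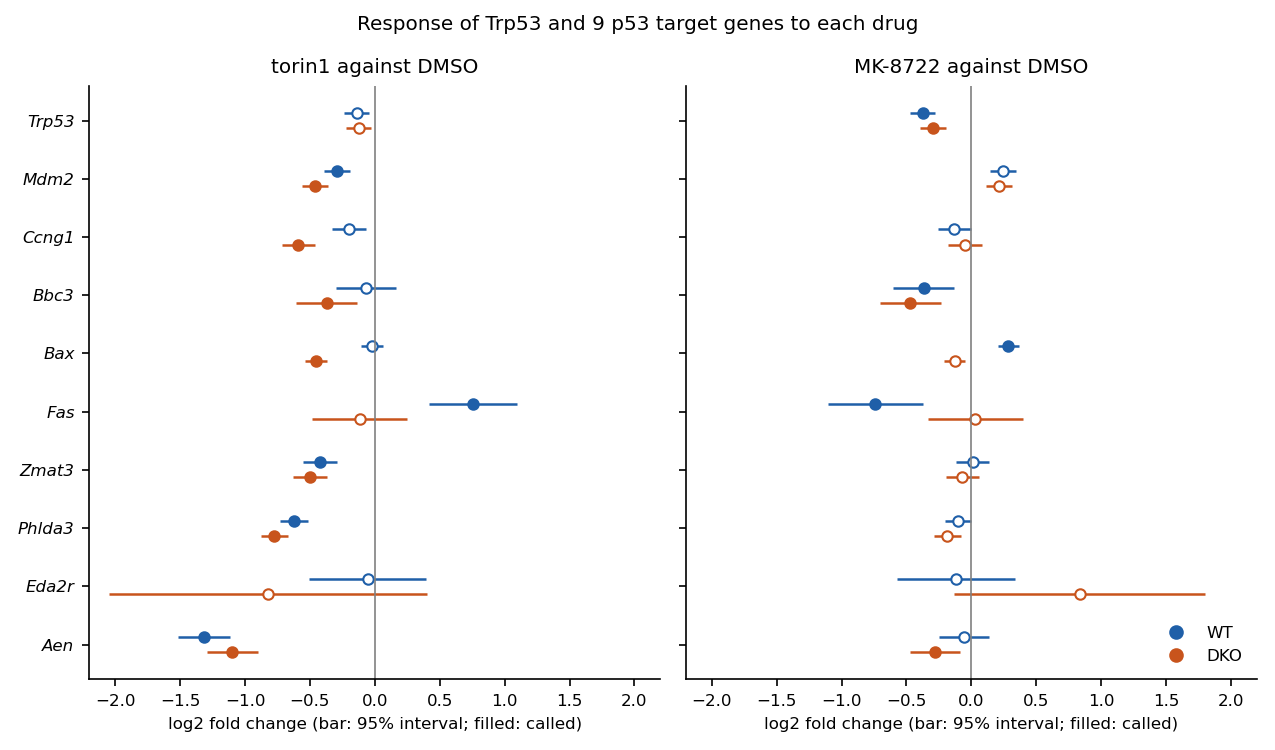
Log2 change against DMSO for the 10 genes under torin1 and MK-8722 in each line, with 95% intervals from the edgeR fit; filled points were called. Under torin1 Aen lies at -1.32 in WT and -1.10 in DKO, and Fas at 0.76 in WT and -0.12 in DKO.

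MK-8722 lowered Trp53 in both lines. The log2 change was -0.38 in WT (adjusted p = 2.18e-06) and -0.30 in DKO (0.000146), and in both lines all 4 MK-8722 libraries lay below all 4 DMSO libraries. Of the 10 genes, 1 rose and 3 fell in WT, where 10.3% of all tested genes rose and 5.87% fell, and 0 rose and 3 fell in DKO (5.47% and 3.21%), with medians of -0.11 and -0.10 beside -0.01 and 0 over all tested genes. Bbc3 fell by 0.37 in WT (adjusted p = 0.0157, 0.074 without WT DMSO replicate 4) and by 0.47 in DKO (0.00481). Bax rose by 0.29 in WT (8.69e-06), which dropped to 0.26, under the fold minimum, without WT DMSO replicate 4. Fas fell by 0.74 in WT (0.00247). Aen fell by 0.28 in DKO at adjusted p = 0.0359, a call lost when any one of 6 libraries (DKO DMSO replicates 2, 3 and 4 and DKO MK-8722 replicates 1, 2 and 3) was left out (adjusted p 0.0736 to 0.135). Mdm2 changed by 0.25 and 0.21 (adjusted p = 0.000461 and 0.00366), short of the fold minimum in both lines.

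The difference of the responses between the lines was tested as an interaction. For torin1 0 of the 10 genes responded more positively in DKO and 3 more negatively, where 4.68% and 6.33% of all tested genes did. These were Bax (-0.43, SE 0.06, adjusted p = 1.25e-05), Ccng1 (-0.39, SE 0.09, 0.00408) and Fas (-0.87, SE 0.24, 0.015). For MK-8722 the counts were 0 and 1 (1.42% and 4.08% of all tested genes), the 1 being Bax (-0.41, SE 0.06, 2.57e-05), which rose in WT and changed by -0.13 in DKO. With scaling to library size alone, the share of called torin1 interactions that were positive moved from 42.5% to 26.5%. The MK-8722 response of Fas differed by 0.77 (SE 0.25, adjusted p = 0.068), which was not called, though it passed when passage was added to the fit (0.0055). With passage within genotype as a block, 2 of the 10 genes and 1392 of all genes were called for this interaction, from 1 and 846. The median difference of the 10 was -0.24 for torin1 and -0.06 for MK-8722, beside -0.005 and 0.01 over all tested genes.

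Beyond the 10, p53 has many other targets, and 46 of 49 such genes listed here were tested. Ptprv and Casp1 reached the count minimum through 1 line, Ptprv through WT and Casp1 through DKO, and are left out of the counts that follow, a choice made after the values were seen. Of the other 44, 7 (15.9%) were higher and 17 (38.6%) lower in DKO under DMSO, where 23.5% and 24.6% of all tested genes were. Under torin1 4 (9.09%) were higher and 17 (38.6%) lower, beside 24% and 27.8% of all tested genes, and under MK-8722 8 (18.2%) and 18 (40.9%), beside 23.3% and 25.4%. Their median log2 differences were -0.15, -0.23 and -0.12, beside -0.01, -0.04 and -0.01 over all tested genes. Under each treatment a larger share of these genes was lower, and a smaller share higher, than among all tested genes, a description with no test of the list. The lines differed in part in passage, and these shares come from the fit without passage. Shares with passage in the fit are not given for this list. Against DMSO, torin1 raised 10 (22.7%) and lowered 18 (40.9%) of the 44 in WT, where 26.6% and 20.5% of all tested genes moved, and raised 7 (15.9%) and lowered 19 (43.2%) in DKO (23% and 20.2%). MK-8722 raised 9 (20.5%) and lowered 3 (6.82%) in WT (10.3% and 5.87% of all tested genes) and raised 6 (13.6%) and lowered 2 (4.55%) in DKO (5.47% and 3.21%). The interaction was called positive for 0 and negative for 5 (11.4%) with torin1, beside 4.68% and 6.33% of all tested genes, and positive for 4 (9.09%) and negative for 3 (6.82%) with MK-8722, beside 1.42% and 4.08%.

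**Figure D4:**
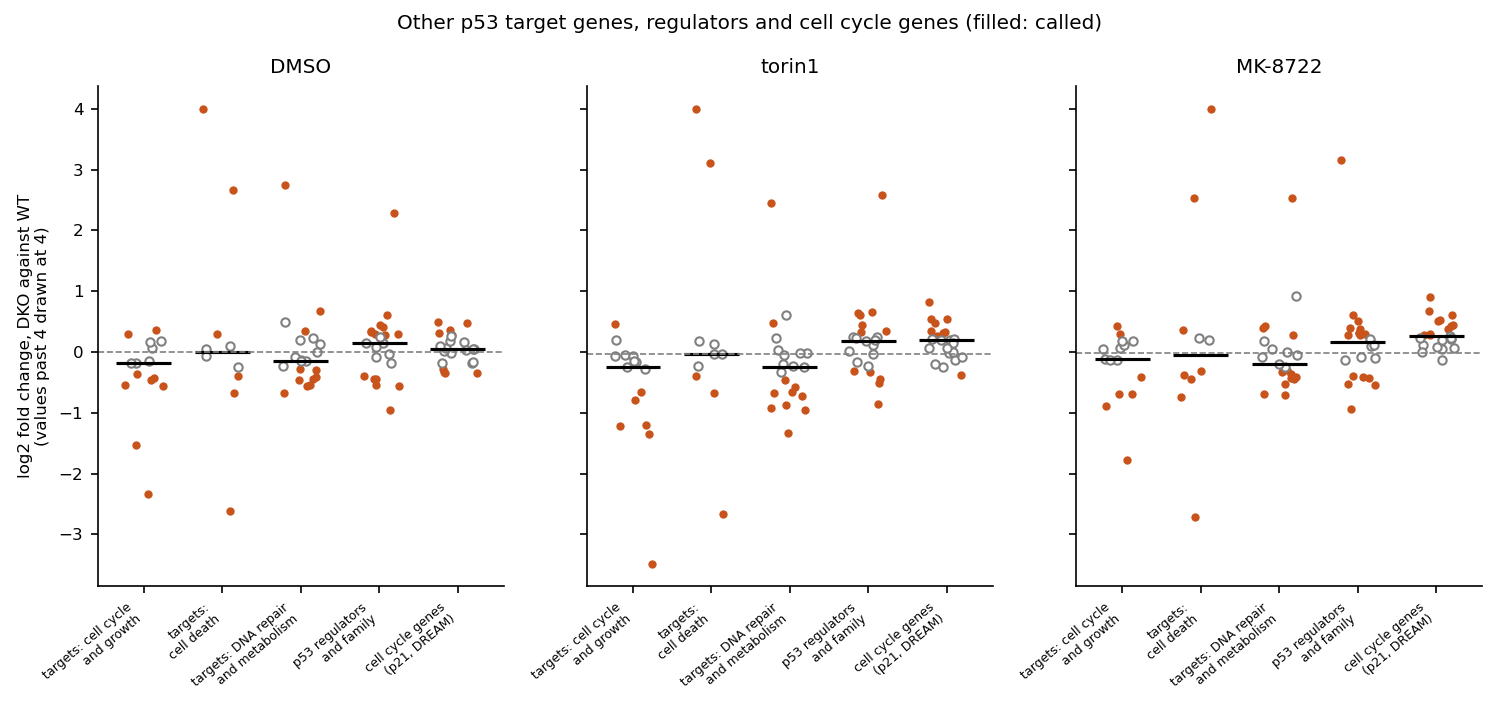
Log2 difference between the lines, DKO minus WT, for each tested gene of the wider lists under each treatment; each point is a gene, filled when called, and the bar is the list's median. Casp1, with 0 counts in WT, is drawn at the edge of the axis and its fitted value depends on the prior count; Pmaip1 lies at 2.67, 3.11 and 2.53 and Dram1 at -2.61, -2.66 and -2.72.

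Among the 14 growth-control targets counted, 2 (14.3%) were higher and 6 (42.9%) lower in DKO under DMSO, beside 23.5% and 24.6% of all tested genes. Cdkn1a, the gene of p21, the inhibitor that carries most of the p53 arrest, was at 52.6, 31.3, 41.6 and 34.7 CPM in WT and 23.5, 30.3, 25.2 and 31.3 CPM in DKO. The lowest WT library met the highest DKO library, at a log2 difference of -0.54 (adjusted p = 0.014), and without WT DMSO replicate 1, a passage 7 library, it was -0.38 (0.0801). Under torin1 Cdkn1a was at 22.7, 26.3, 32.0 and 31.7 CPM in WT and 15.7, 11.1, 10.7 and 11.8 CPM in DKO, which lie apart (log2 -1.19, adjusted p = 1.04e-05), and under MK-8722 the difference was -0.70 (0.0022). Psrc1, a microtubule protein, was at -1.53, -1.36 and -0.89, and the sestrins, which restrain MTORC1 when nutrients or redox balance fail, were also lower (Sesn2 -0.55, -1.22 and -0.69, Sesn1 -0.45, -0.66 and -0.42). Gadd45a (0.36) and the kinase Plk3 (0.29) were called higher in DKO under DMSO, and Plk2 (0.47) under torin1. Under MK-8722 the antiproliferative gene Btg2 was higher (0.29).

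Of the 9 other cell-death targets counted, 2 (22.2%) were higher and 3 (33.3%) lower under DMSO, beside 23.5% and 24.6% of all tested genes. Pmaip1, which encodes the BH3-only protein NOXA, was at 3.44, 3.25, 3.14 and 3.31 CPM in WT and 20.01, 25.2, 20.3 and 18.3 CPM in DKO, a log2 difference of 2.67 (adjusted p = 1.87e-14), and it rose with torin1 in both lines, to 5.97 to 6.84 CPM and 48.9 to 65.8 CPM. Dram1, a lysosomal membrane protein that links p53 to autophagy, went the other way, at 8.12, 9.31, 8.55 and 8.25 CPM in WT and 1.58, 1.15, 1.15 and 1.68 CPM in DKO (log2 -2.61, adjusted p = 1.59e-14). Both separations were present under all 3 treatments. The TRAIL receptor Tnfrsf10b (-0.67, -0.67 and -0.74) and Siva1 (-0.39, -0.40 and -0.31) were lower throughout, Perp (-0.44) was lower under MK-8722, and Ei24 was higher under DMSO (0.29) and MK-8722 (0.36). Casp1, a protease of inflammation chosen here after its values were seen, had 0 counts in the 12 WT libraries and 0.857 to 1.6 CPM in DKO.

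Of the 21 repair and metabolism targets, 3 (14.3%) were higher and 8 (38.1%) lower under DMSO, beside 23.5% and 24.6% of all tested genes. The heparan sulfatase Sulf2, the phospholipid transfer protein Pltp, the mitochondrial glutaminase Gls2, the proline-breakdown enzyme Aldh4a1 and the lipase Abhd4 were lower under every treatment, with Aldh4a1 at -0.46, -1.34 and -0.36 and Pltp at -0.57, -0.96 and -0.69. Tigar, which lowers glycolytic flux, was higher under every treatment (0.67, 0.47 and 0.40), Slc19a2, a thiamine transporter, under DMSO (0.35) and MK-8722 (0.28), and Ak1 under MK-8722 (0.42). Mgmt, a gene of low abundance chosen here after its values were seen, was also higher in DKO under every treatment. It was at 0.511 to 0.973 CPM over the WT libraries and 3.70 to 5.07 CPM over the DKO libraries.

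Of 22 upstream regulators tested, Trp63 reached the count minimum through DKO alone. Of the other 21, 8 (38.1%) were higher and 6 (28.6%) lower under DMSO, beside 23.5% and 24.6% of all tested genes, 6 (28.6%) and 5 (23.8%) under torin1, beside 24% and 27.8%, and 9 (42.9%) and 6 (28.6%) under MK-8722, beside 23.3% and 25.4%. The torin1 shares lay near those of all genes. Cdkn2a, whose ARF product holds MDM2 away from p53 and whose other product is the CDK inhibitor p16, was at 160.8 to 209.8 CPM over the WT libraries and 87.7 to 103.8 CPM over the DKO libraries, with log2 differences of -0.96 (adjusted p = 2.22e-10), -0.85 and -0.93. The counts per gene do not separate the ARF and p16 transcripts, and the values per transcript were not examined for this gene. Mdm4, the MDM2 partner that blocks p53's activation domain, was at 40.4 to 50.9 CPM in WT and 51.8 to 67.1 CPM in DKO, with differences of 0.44 (1.19e-07), 0.32 and 0.38. For both genes the lines did not overlap in any treatment, although with scaling to library size alone the torin1 difference of Mdm4 was 0.20, under the fold minimum. Cop1, another ligase that targets p53, was higher throughout (0.60, 0.65 and 0.61), as were the p53 kinase Hipk2 (0.33, 0.61 and 0.51) and the ligase Herc2 (0.35, 0.64 and 0.39). The deacetylase Sirt1 was higher under DMSO (0.41) and MK-8722 (0.28). The acetyltransferases Ep300 (-0.54, -0.51 and -0.43) and Kat5 (-0.44, -0.32 and -0.54), the damage-response scaffold Trp53bp1 (-0.55, -0.32 and -0.40) and the ligase Ube4b (-0.44, -0.44 and -0.53) were lower throughout. Ppm1d, the phosphatase WIP1, a p53 target that switches the pathway off, was not called (-0.18, -0.23 and -0.09).

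Active p53 lowers cell-cycle genes through p21 and the DREAM repressor complex, and 22 such genes were tested. Under DMSO 5 (22.7%) were higher and 4 (18.2%) lower in DKO (median 0.05), no more than the 23.5% and 24.6% of all tested genes. Under torin1 8 (36.4%) were higher and 1 (4.55%) lower (median 0.20), beside 24% and 27.8%, and under MK-8722 11 (50%) and 0 (median 0.27), beside 23.3% and 25.4%. With scaling to library size alone the higher counts under DMSO and torin1 were 3 and 4 of the 22. Over all 15401 tested genes that scaling called 2943 and 2629 higher, from 3621 and 3692, so the torin1 share of the list was then near that of all genes. E2f1 (0.50, 0.48 and 0.44), Plk1 (0.47, 0.55 and 0.90), Mybl2 (0.36, 0.53 and 0.43) and Mki67 (0.29, 0.31 and 0.68) were higher under every treatment, and Rrm2, of deoxynucleotide synthesis, under torin1 (0.83) and MK-8722 (0.53). Top2a, Birc5, Cdc20 and Ccnb1 were lower in DKO under DMSO. Their means were 715.6, 128.7, 179.1 and 185.6 CPM in WT and 563.0, 101.2, 141.9 and 153.0 CPM in DKO. MK-8722 lowered 5 (22.7%) and raised 0 of these genes in WT, where it lowered 5.87% and raised 10.3% of all tested genes, and lowered 1 (4.55%) and raised 2 (9.09%) in DKO (3.21% and 5.47%). The interaction was called in the positive direction for 11 of the 22 and in the negative for 0, beside 1.42% and 4.08% of all tested genes, with a median of 0.26 beside 0.01 over all tested genes.

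Passage number moved with several of these mRNAs within a line. Cdkn1a fell from passage 7 to 11 in WT under each treatment, at 52.6, 41.6, 34.7 and 31.3 CPM for passages 7, 8, 9 and 11 under DMSO, 32.0, 31.7, 26.3 and 22.7 CPM under torin1, and 57.1, 48.7, 33.9 and 30.0 CPM under MK-8722. Over the 12 WT libraries its log2 change from passage 7 to 11 was -0.76 (adjusted p = 4.92e-05), or -0.56 (0.00787) without the passage 11 libraries. Of the 10 genes, 1 rose with passage in WT (Fas, 0.53) and 1 fell (Eda2r, -0.44), where 6.13% and 3.93% of all tested genes did, and neither passed without the passage 11 libraries (adjusted p = 0.426 and 0.275). The log2 slope per passage was then 0.11 for Fas, from 0.13, and -0.18 for Eda2r, from -0.11. Zmat3 (-0.24, adjusted p = 0.000229), Ccng1 (-0.18, 0.00631) and Mdm2 (-0.16, 0.0163) also fell in WT, short of the fold minimum. Of these only Mdm2 kept an adjusted p under 0.05 without the passage 11 libraries (0.0434). Of the 46 wider targets tested, 4 rose and 8 fell with passage in WT, beside 6.13% and 3.93% of all tested genes. Without passage 11 it was 1 and 1, beside 0.883% and 0.416%. In DKO 0 of the 10 genes rose and 1 fell (Aen, -0.32 from passage 8 to 11), against 2.0% and 2.32% of all tested genes, a call lost without passage 8 (0.146) at a slope of -0.093 per passage, from -0.11, and Cdkn1a changed by -0.36 (0.0291, or 0.0501 without passage 8). Of the 46 wider targets, 2 rose and 1 fell with passage in DKO, beside the same shares of all tested genes. The lines shared passages 8, 9 and 11. With passage as a factor in the fit, Cdkn1a stayed lower in DKO under DMSO, torin1 and MK-8722 (-0.36, -1.03 and -0.51, all called), and the DMSO difference of Fas became a call (-0.32, adjusted p = 0.028). This trend was examined after the values had been seen.

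**Figure D5:**
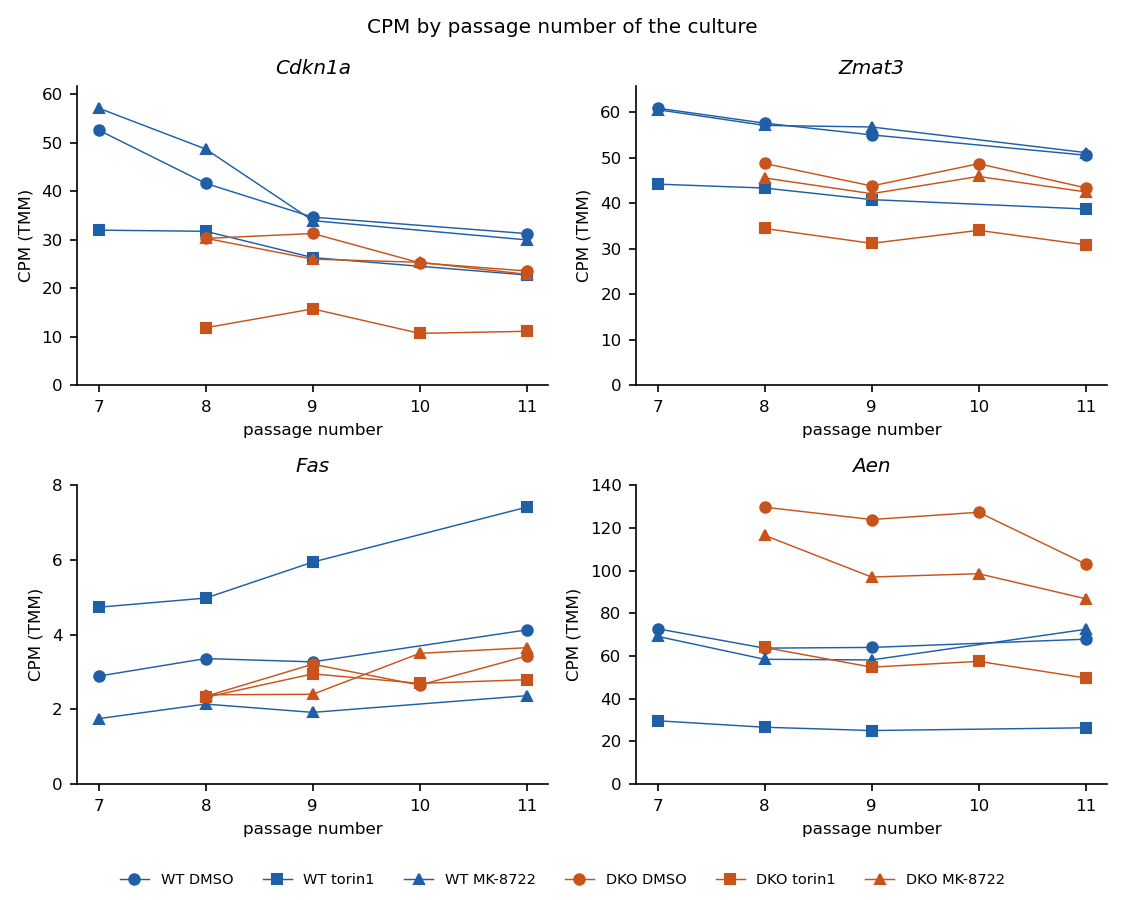
CPM of Cdkn1a, Zmat3, Fas and Aen against the passage of each culture, with 1 point per library on linear axes from 0; colour gives the genotype, marker shape the treatment, and lines join the libraries of a group. In WT Cdkn1a declines from 52.6 CPM at passage 7 to 31.3 CPM at passage 11 under DMSO.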

How the data were processed

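PolyA RNA of 24 MEF libraries was sequenced by the authors. They made estimated counts per gene and TPM (length-scaled transcript abundance) per transcript with STAR and salmon on GRCm38, within nf-core/rnaseq and with unique molecular identifiers considered, and deposited both; the strand setting is not given in the sources used here. The study used edgeR with removal of a batch it does not name, and the labels give a single batch. Here the estimated counts were rounded to whole numbers. Genes were kept by filterByExpr with a minimum count of 10 (15401 of 55487), scaled by TMM (factors 0.950 to 1.08), and fitted with the quasi-likelihood test of edgeR 4.0.16 in R 4.3.3 over all 24 libraries, with 1 mean per group and Benjamini-Hochberg adjustment over all tested genes. The code was tested on simulated data. Library totals of 24668921 to 33332562 counts (median 27988364) and a biological coefficient of variation of 10.7% set the precision. CPM are counts scaled by library size and TMM factor, and fold changes are fitted values with an added prior count. TPM were summed over the transcripts of a gene.

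Genotypes and treatments came from the labels. DKO was compared with WT under each treatment, each drug with DMSO in each line, and the responses between lines. The 10 genes and all gene lists were chosen with earlier results of these data known. All 10 genes were described, along with Cdkn1a, Mdm4, Ppm1d and Cdkn2a, and from each wider list the 3 called genes with the largest rise and the 3 with the largest fall between the lines among genes of at least 2 log2 CPM. A comparison of the pattern of Trp53 with that of other genes is not reported here. Gene positions are from GENCODE on GRCm38 and start-site windows from RefSeq on GRCm38.p6. Alternatives were other filters and scalings, DESeq2 1.42.0, a test against the fold minimum (glmTreat), the adjusted p alone, blocks for replicate number and passage, fits to the compared groups only, and each library left out. Libraries with the same replicate number did not deviate together (60 pairs, r -0.41 to 0.66, 13 over 0.1), so the numbers were not used as pairs. Libraries of the same genotype and passage did so more often (24 pairs, r 0.022 to 0.657, median 0.157, 17 over 0.1), and passage was fitted as an alternative.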

Additional observations from a re-analysis of the deposited data

Results flagged for a closer look

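Of 60 groups of 4 values, 10 genes in 6 groups, 2 held a library far from the other 3, where chance gives about 1 in 20 groups. Trp53 was at 348.2 CPM in DKO MK-8722 replicate 4 and at 286.2 to 296.7 CPM in the other 3. Eda2r was at 0.103 CPM (3 counts) in DKO MK-8722 replicate 1 and at 0.3499 to 0.3854 CPM in the other 3.

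The drug response differed between the lines for 3 genes by the edgeR interaction test. For torin1 the log2 response in DKO minus that in WT was -0.3875 for Ccng1 (adjusted p = 0.00408), -0.4289 for Bax (1.25e-05) and -0.8732 for Fas (0.015), and for MK-8722 it was -0.4145 for Bax (2.57e-05).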

How the results depend on the processing

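The 39 called differences of the 10 genes gave 566 values under alternatives other than leaving out 1 library. Of these 548 kept their direction and their call, 18 lost the call and 0 changed direction. With 1 library left out the counts were 922, 14 and 0 of 936. The 39 include the differences of Eda2r between the lines. Those were fixed once the gene was tested through its WT libraries alone, so their agreement is no check. Requiring at least 10 counts in every sample removed Eda2r, so that setting gives no value for it. The number of the 10 genes called for the MK-8722 interaction was 2 with the DESeq2 Wald test, 2 with passage as a factor, 2 with passage within genotype as a block, 0 with glmTreat and 1 to 2 with 1 library left out. glmTreat called 3 between the lines under MK-8722, 1 for MK-8722 in WT, 0 for MK-8722 in DKO and 1 for the torin1 interaction, and over all genes 956 and 174 for MK-8722 in WT and DKO and 454 and 273 for the torin1 and MK-8722 interactions. The adjusted p alone called 6 of the 10 for MK-8722 in DKO, and over all genes 4775 for MK-8722 in WT and 3198 in DKO. The block for passage within genotype called 1392 genes for the MK-8722 interaction. For MK-8722 in WT, 2 to 5 of the 10 were called with 1 library left out. With the replicate block the number of the 10 genes called, Eda2r included, was 5, 6 and 5 between the lines under DMSO, torin1 and MK-8722, 5 and 4 for torin1 and MK-8722 in WT, 7 and 3 in DKO, and 3 and 1 for the interactions, as without the block. In the main fit 48.2%, 51.8% and 48.7% of all tested genes were called between the lines, shares near those of the 10. For torin1 and MK-8722 the main fit called 47.1% and 16.1% of all tested genes in WT and 43.2% and 8.69% in DKO. It called 11.0% and 5.49% for the interactions.

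Differences that were not called changed sign around 0 on the log2 scale. Between the lines under DMSO, Mdm2 was -0.02256 with at least 10 counts in every sample, -0.009602 with DESeq2 size factors, -0.06983 with library size alone, -0.009832 with DESeq2, -0.01038 with the compared groups alone and -0.04557 without WT passage 11, and Ccng1 was 0.003767 with no filter and 0.02821 without DKO passage 8. Under torin1 Bax was -0.06051 with library size alone. Under MK-8722 Trp53 was -0.05227 and Ccng1 -0.00547 with library size alone, Trp53 was -0.01901 without WT passage 11 and -0.04234 without DKO passage 8, Bbc3 was 0.006874 with no filter, and with passage as a factor Mdm2 was 0.001321 and Bbc3 0.04823. For torin1 in WT, Bax was 0.005416 with at least 10 counts in every sample, and with library size alone Bbc3 was 0.02521, Bax 0.06902 and Eda2r 0.03474. The torin1 interaction of Trp53 was -0.04014 with library size alone, and Zmat3 with MK-8722 in WT was -0.0001369 without WT passage 11. The cause of these changes was not tested.

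With 1 library left out, the values that crossed 0 ran between the lines from -0.05636 to 0.02282 for Ccng1 and -0.03197 to 0.04118 for Mdm2 under DMSO, and from -0.04302 to 0.05651 for Trp53, -0.06813 to 0.004893 for Mdm2 and -0.1141 to 0.07506 for Bbc3 under MK-8722. For torin1 in WT they ran from -0.1531 to 0.01402 for Eda2r and -0.1336 to 0.01375 for Bbc3, and for MK-8722 from -0.04075 to 0.04969 for Zmat3 in WT, -0.07531 to 0.1247 for Fas in DKO and -0.08824 to 0.00124 for Ccng1 in DKO. The interactions ran from -0.0003674 to 0.06711 for Trp53 with torin1 and -0.07353 to 0.03273 for Mdm2 with MK-8722. Depth limits Eda2r most, at 1 to 10 counts in each DKO library.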
